A study of Mus musculus with 2 samples.

Results

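The 10 genes of dendritic cells and of their migration program were described in macrophages collected from infarcted mouse hearts: Ccr7, Ccl22, Ccl17, Fscn1, Flt3, Zbtb46, Irf4, P2ry10, Kit and Mgl2. They were picked from a table of 23284 genes by symbol, as dendritic cell genes that lead 1 side of the authors' comparison, and all 10 of 10 were found. The series holds 1 library of Ly6Clo macrophages and 1 library of Ly6Chi macrophages, named by their level of surface Ly6C and collected from C57BL/6 mice 3 days after the left anterior descending coronary artery was tied off, which is a model of myocardial infarction. Both populations carried the same ligation, and uninjured hearts were not analysed here. The labels do not state whether cells of several animals were pooled.

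The values are the authors' signed statistic for the comparison of these libraries and the rank of each gene by the size of that statistic. The statistic has no stated unit, so it is not read as a fold change, and it carries no error. The columns of values per library bear codes that match neither sample label and were not used, so it is not known here which population a sign belongs to, and no expression level is given. Results are stated by side, positive or negative. Ly6c2, which encodes a Ly6C antigen, serves as a landmark of the negative side at -1.78 in the authors' deposited table. Each population has a single library, so the values have no replicate check and no p-value, and the depth behind them was not analysed here. In bulk RNA, fewer cells of a type and less RNA per cell cannot be told apart.

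Dendritic cells take up antigen in tissues and carry it to lymph nodes, where they present it to T cells. Their precursors depend on the receptor Flt3, and conventional dendritic cells are marked by the transcription factor Zbtb46. On maturation they switch on the chemokine receptor Ccr7, which guides them along gradients of Ccl19 and Ccl21 into lymphatic vessels, and the actin-bundling protein fascin, encoded by Fscn1. Conventional dendritic cells fall into a type 1 class, which depends on Irf8 and Batf3, and a type 2 class, which depends on Irf4. Macrophages can also make several of these products, among them Ccl22, Ccl17 and Mgl2.

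All 10 genes lay on the positive side, opposite Ly6c2, at a size of 1 or more, a range that held 0.709% of all genes, against 0.0644% at -1 or below, in the authors' deposited table. They were picked for leading that side, so nothing is read from this count. Their statistics ran from 1.19 for Ccl17 to 2.84 for Ccr7, with a median of 1.75, in the authors' deposited table. As a description of that choice, 4 of the 10 stood among the first 10 genes of the positive side and 9 among the first 50.

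**Figure D1:**
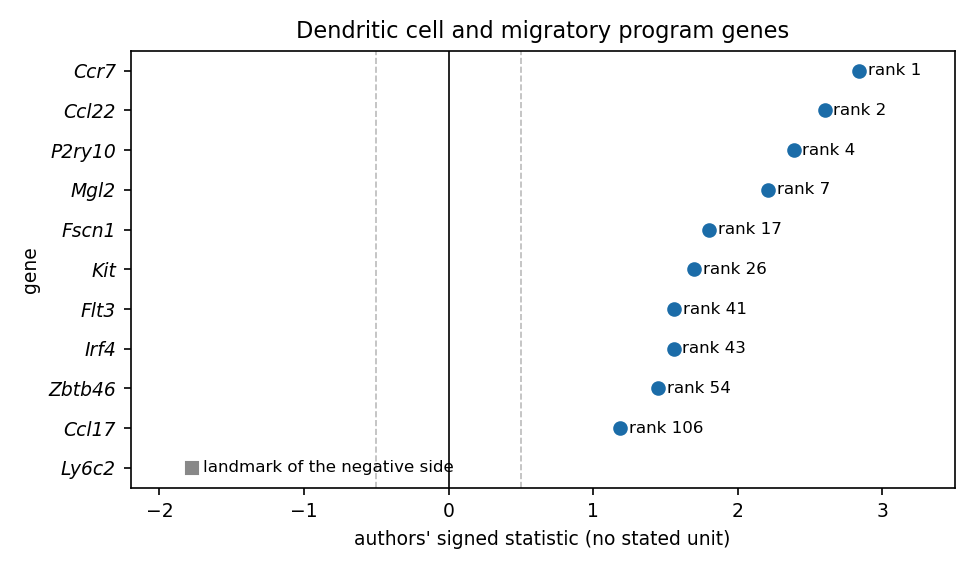
Authors' signed statistic (horizontal axis, no stated unit) for each of the 10 genes, with Ly6c2 as the landmark of the negative side; labels give the rank by size, and dashed lines mark a size of 0.5. The 10 genes run from 1.19 to 2.84 and all lie on the side opposite Ly6c2.

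Of the migration genes, Ccr7 led the whole table. Ccr7 lies at chr11:99144199-99155077 on GRCm38, and the authors' deposited table puts it at 2.84, rank 1 of all genes by size. Fscn1, at chr5:142960355-142973189, follows at 1.802 and rank 17 there, by the authors' deposited table. Values of the Ccr7 ligand genes are listed beside it, and nothing is read from the contrast, since Ccr7 was picked for its place. Ccl19 had 0.11 in the authors' deposited table, while Ccl21a and Ccl21b stood at exactly 0, a value shared by 6982 of the 23284 genes and not interpreted here. Ccl21a and Ccl21b are near-identical copies, and the counting could split or drop their reads.

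Both chemokine genes of the group signal through Ccr4, a receptor of T cells and other lymphocytes. For Ccl22, at chr8:94745684-94751388, the authors' deposited table gives 2.60 and rank 2. For Ccl17, at chr8:94809380-94812038, the authors' deposited table gives 1.19 and rank 106, the lowest place of the 10. The pair are neighbours, with the fractalkine gene Cx3cl1 between them. Cx3cl1, whose product binds Cx3cr1, stood at 1.42 (rank 58) in the authors' deposited table, so the 3 adjacent chemokine genes lay on 1 side. Beyond them, Pllp had 0.03 and Ciapin1 had 0.07 in the authors' deposited table. The receptor gene Ccr4 had 0.10 in the authors' deposited table.

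Promoter sequence is shown for this chemokine pair and for Irf4 and Mgl2, which mark type 2 dendritic cells, as the chemokine neighbours and the type 2 genes among the 10. Each is the stretch of 250 bases before a transcript start listed by RefSeq on GRCm38.p6, written 5′ to 3′ on the strand of the gene. That start need not be the end of the gene's span. The Ccl17 stretch lies wholly inside the span of Ccl17, and the Mgl2 stretch lies mostly inside that of Mgl2. Capitals mark matches to GAGGAA, the core letters bound by the myeloid factor PU.1, on either strand.
Ccl22 (chr8:94745434-94745683, plus strand): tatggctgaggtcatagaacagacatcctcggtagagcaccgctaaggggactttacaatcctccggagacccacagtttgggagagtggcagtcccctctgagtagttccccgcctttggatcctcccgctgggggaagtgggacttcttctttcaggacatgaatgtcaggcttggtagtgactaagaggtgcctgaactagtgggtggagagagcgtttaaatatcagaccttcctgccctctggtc
Ccl17 (chr8:94810203-94810452, plus strand): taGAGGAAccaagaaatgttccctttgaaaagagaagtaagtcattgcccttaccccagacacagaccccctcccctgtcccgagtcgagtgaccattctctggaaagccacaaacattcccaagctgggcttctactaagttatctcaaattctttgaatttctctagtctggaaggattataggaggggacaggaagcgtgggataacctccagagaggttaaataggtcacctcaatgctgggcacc
Irf4 (chr13:30748983-30749232, plus strand): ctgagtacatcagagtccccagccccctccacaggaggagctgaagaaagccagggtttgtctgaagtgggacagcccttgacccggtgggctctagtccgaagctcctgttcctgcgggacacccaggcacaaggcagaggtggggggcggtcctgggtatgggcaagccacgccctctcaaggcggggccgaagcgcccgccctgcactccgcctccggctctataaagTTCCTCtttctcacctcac
Mgl2 (chr11:70130107-70130356, plus strand): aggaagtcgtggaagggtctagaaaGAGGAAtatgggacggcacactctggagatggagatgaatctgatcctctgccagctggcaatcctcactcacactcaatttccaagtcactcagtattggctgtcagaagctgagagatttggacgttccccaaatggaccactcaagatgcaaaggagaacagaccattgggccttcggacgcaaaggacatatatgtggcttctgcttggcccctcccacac

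Of the 10 genes, 9 matched an entry of the RefSeq promoter table and Ccr7 did not. The only start listed for Zbtb46 lies well inside the span of the gene, so its outermost start was not searched. The window searched ran from 250 bases before to 50 after the start, on both strands. GAGGAA was found in 5 of the 9 genes (Ccl17, Irf4, Kit, Mgl2 and P2ry10), counting a gene with several starts once if any of them matched. Counted in the same way, 31.3% of all 27025 genes in the promoter table held it. Among the 9 genes, Kit and P2ry10 have 2 starts each. In Irf4 it lay 19 to 14 bases before the start, on the opposite strand, and in P2ry10 29 to 24 bases before 1 of the 2 starts listed, also on the opposite strand. The NF-kB letters GGGNNTTTCC, the interferon response letters GAAANNGAAA and the ETS-IRF composite letters GGAANNGAAA, where N is any base, were found in 0 of the 9 genes. By the same count they occur in 1.89%, 3.99% and 3.16% of all genes. The GAGGAA letters can overlap the ETS-IRF letters. A match or its absence describes these letters in this window and nothing about binding.

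The growth factor receptors of the group are the class III receptor tyrosine kinases Flt3 and Kit. Flt3, the receptor that drives dendritic cell development, lies at chr5:147330741-147400489 and stood at 1.56 (rank 41) in the authors' deposited table. Kit, the stem cell factor receptor, lies at chr5:75574987-75656722 and stood at 1.70 (rank 26) in the authors' deposited table. Of their ligand genes, Flt3l had 0.19 and Kitl 0.01 in the authors' deposited table. Among the other class III receptor genes, Pdgfra had 0.92, Pdgfrb 0.65 and the macrophage growth factor receptor gene Csf1r 0.25 in the authors' deposited table. In all, 12 ligand and receptor genes tied to the group held 7 positive, 3 negative and 2 zero values, in the authors' deposited table. None of them (0 of 12) reached 0.5, a size that 3.77% of all genes reached on the positive side, so a count of 0 in so short a list is near the background. Csf2ra, Csf2rb and Csf2rb2, which encode chains of the GM-CSF receptor that dendritic cells also use, had -0.18, 0.02 and -0.14 in the authors' deposited table.

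Kit is also the defining receptor of mast cells, and other genes of a mast cell and basophil list are given beside it. Exactly 0 was the value of 30.0% of all genes and is not interpreted here. Whether genes at 0 were expressed was not analysed, and a mast cell source of Kit was not tested. Of 9 other mast cell and basophil genes, 7 stood at exactly 0 in the authors' deposited table: the proteases Cpa3, Mcpt4, Tpsb2, Cma1 and Mcpt8 and the IgE receptor chains Fcer1a and Ms4a2. Hdc, the histamine-forming enzyme, had -0.0032, and the transcription factor gene Gata2 had 0.16, in the authors' deposited table.

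The transcription factors were close to each other in place. Irf4, which supports type 2 dendritic cells and is also used by lymphocytes and some macrophages, stood at 1.56 (rank 43) in the authors' deposited table. Its locus is chr13:30749233-30766981. Zbtb46, at chr2:181371009-181493262, stood at 1.45 (rank 54) in the authors' deposited table. Irf8, the related factor of type 1 dendritic cells, had -0.05 and Batf3 had 0.36 in the authors' deposited table. Relb, an NF-kB subunit active in dendritic cell maturation, had 0.40 in the authors' deposited table.

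The remaining surface genes were among the leaders. P2ry10, which encodes a lysophospholipid receptor of lymphoid and dendritic cells, lies at chrX:107088492-107104974 and stood at 2.39 (rank 4) in the authors' deposited table. Its neighbours and relatives P2ry10b, listed as A630033H20Rik, and Gpr174 had -0.01 and 0.19 in the authors' deposited table. Mgl2, a galactose-binding C-type lectin, lies at chr11:70130125-70137542 and stood at 2.21 (rank 7) in the authors' deposited table. Its close paralog Clec10a, 29.1 kb away, had 0.69, and Asgr2 on its other side had 0.93, in the authors' deposited table. Mgl2 and Clec10a are similar in sequence, so reads could be split between them by the counting.

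Of 16 relatives and close neighbours of the 10 genes, 12 were on the positive side and 4 on the negative, and their median was 0.16, in the authors' deposited table. Of these, 6 reached 0.5, which 3.77% of all genes did on the positive side. The fascin relatives Fscn2 and Fscn3, known from the retina and testis, had -0.29 and 0.08 in the authors' deposited table.

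Position on the chromosome was described for the nearest 2 annotated genes on either side, set by start coordinate, that have a row in the table. Besides Ccl22 and Ccl17, which neighbour each other, there were 37 such genes, with 23 positive, 9 negative and 5 zero values in the authors' deposited table and a median of 0.04, zeros included. Over all genes, 40.4% were positive, 29.6% negative and 30.0% zero. Of these 37, 5 reached 0.5, against 3.77% of all genes. In the authors' deposited table they were Cx3cl1, the lectin genes Asgr2 and Clec10a, Igfbp4 beside Ccr7 at 0.88 and Pdgfra beside Kit. All but Igfbp4 were also counted among the relatives above, so both counts rest partly on the same genes. Kdr, the endothelial growth factor receptor on the other side of Kit, had -0.57 in the authors' deposited table. The closest neighbours of Flt3, Irf4, Zbtb46, P2ry10 and Fscn1 were all under 0.5 in size. For Zbtb46, Zgpat overlaps the gene, and Lime1 and Slc2a4rg-ps, taken as its higher neighbours, lie inside it. Genes beyond the higher end of Zbtb46 were not described.

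**Figure D2:**
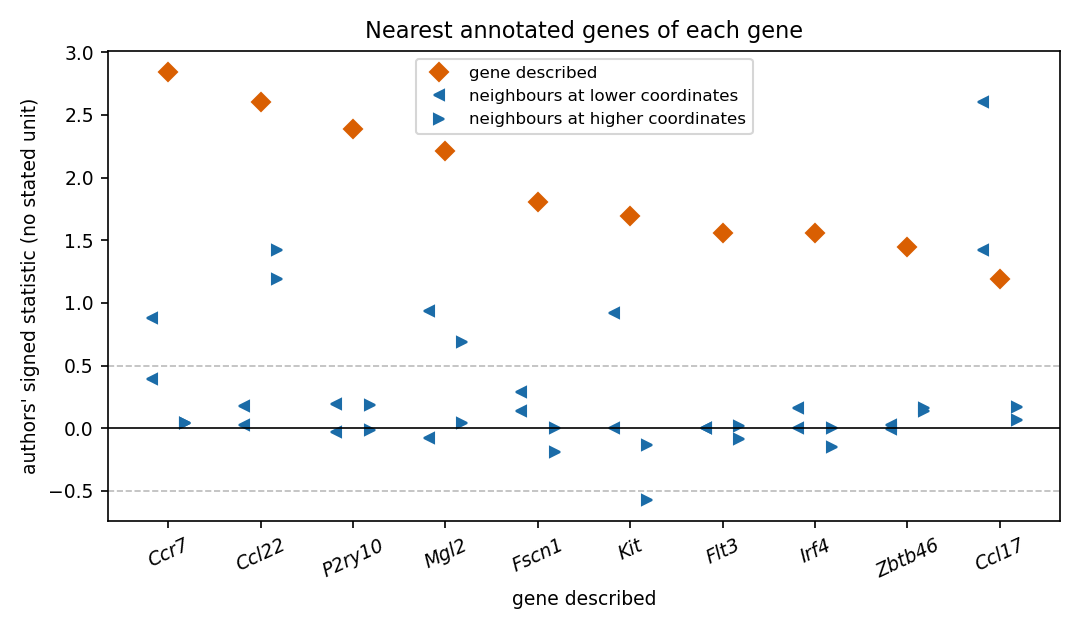
Authors' signed statistic (vertical axis, no stated unit) of each of the 10 genes and of the 2 nearest annotated genes on either side by start coordinate; triangles point to the side on which a neighbour starts, and dashed lines mark a size of 0.5. Lime1 and Slc2a4rg-ps, drawn at the higher side of Zbtb46, lie inside it. Cx3cl1 at 1.42 lies beside both Ccl22 and Ccl17, while every neighbour of Flt3, Irf4, Zbtb46, P2ry10 and Fscn1 lies between the dashed lines.

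Other genes of the dendritic cell classes were taken from lists and are counted without the 10 genes, and each list median leaves out genes at exactly 0. All lists were chosen with earlier results of these data known, so their counts are described and support no conclusion. The lists overlap, since Relb is in both the type 2 and the mature list. Clec10a, Pdgfra, Irf8, Ccr9 and Csf1r are each in a cell type list and among the relatives of the 10 genes. Over all genes of the authors' deposited table, 3.77% were at 0.5 or more and the median of genes other than 0 was 0.0051. Of all genes there, 40.4% were positive, 29.6% negative and 30.0% exactly 0. Of 16 other genes shared by conventional dendritic cells, 15 were positive and 9 were at 0.5 or more, with a median of 0.77, in the authors' deposited table. The peptidase gene Dpp4 had 1.76, the class II gene H2-Eb2 1.55, the signalling adaptor gene Traf1 1.33 and the integrin gene Itgax 1.20 in the authors' deposited table. These 4 lay at or above the lowest of the 10 genes. Slamf7 was the exception at -0.64 in the authors' deposited table. Genes of this list, positive or negative, can also be made by other cells, and their cell source was not tested.

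Genes of mature or migratory dendritic cells lay on the same side. In the authors' deposited table, 22 of 24 others were positive, 13 of them at 0.5 or more, and the median was 0.55. Il12b, a subunit of IL-12, stood at 1.90 (rank 13) and the calcium channel subunit gene Cacnb3 at 1.73 (rank 21) in the authors' deposited table. The maturation marker gene Cd83 had 1.12 and Stat4 had 1.05 in the authors' deposited table. Not every maturation gene was far from 0: Cd86 had 0.02, Cd80 0.10, Cd274 0.10 and Lamp3 -0.07 in the authors' deposited table, and Il4i1 stood at exactly 0.

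The subset lists were less uniform. Of 12 type 1 genes, 10 were positive but 2 reached 0.5, with a median of 0.30, in the authors' deposited table. The integrin gene Itgae had 1.05 and the adhesion gene Cadm1 0.67, while the defining receptors Clec9a and Xcr1 had 0.49 and 0.24, in the authors' deposited table. Of 9 other type 2 genes, 5 were positive and 4 negative, and 2 reached 0.5, with a median of 0.04, in the authors' deposited table. The lectin gene Cd209a stood at 1.66 (rank 28), with Clec10a at 0.69, whereas Sirpa had 0.04, Itgam -0.21 and Notch2 -0.36 in the authors' deposited table. Sirpa and Itgam are also macrophage genes, and positive genes of these lists can likewise be made by other cells. Of 11 plasmacytoid genes, 5 were positive, 4 negative and 2 at 0 in the authors' deposited table. The median of the 9 genes other than 0 was 0.04, and that of all 11 was 0. Spib had 0.82, the defining receptor gene Siglech had 0.11, Ccr9 0.14 and Irf7 -0.62 in the authors' deposited table. Siglech has exactly the same value as Ccl19, and 841 genes share the smallest positive value. The counts behind such ties were not analysed here, so these small values are not read gene by gene. Whether these lists differ from each other was not tested.

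Markers of other cells were set beside these values, although how much of any marker each library held was not analysed here. Of 11 macrophage genes, 9 were negative and 3 were at -0.5 or below, a range that held 0.988% of all genes, with a median of -0.25 in the authors' deposited table. Fcgr1 had -0.79, Cd68 -0.68 and Lyz2 -0.53, while the positive ones were Cd163 at 0.59 and Csf1r at 0.25, in the authors' deposited table. The 10 fibroblast genes were without exception positive in the authors' deposited table, with a median of 1.42, and 8 of them were at 0.5 or more. Col1a1, Col3a1, Col1a2 and Postn, which encode matrix proteins, had 2.14, 2.03, 1.99 and 1.74 in the authors' deposited table. Fibroblast genes thus lay on the same side as the 10 dendritic cell genes, and their part in the result was not tested. Of 9 B cell genes 7 were positive, and of 9 T cell genes 4 were positive, in the authors' deposited table. In both lists every gene was under 0.5 in size there. Over all genes, 3.77% were at 0.5 or more and 0.988% at -0.5 or below, so none in lists this short is near the background. The largest in size were Cd22 at -0.35 and Cd79b at -0.24 among B cell genes, and Il7r at -0.38 and Cd5 at 0.28 among T cell genes, in the authors' deposited table. Cd3e and Cd3g stood at exactly 0.

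**Figure D3:**
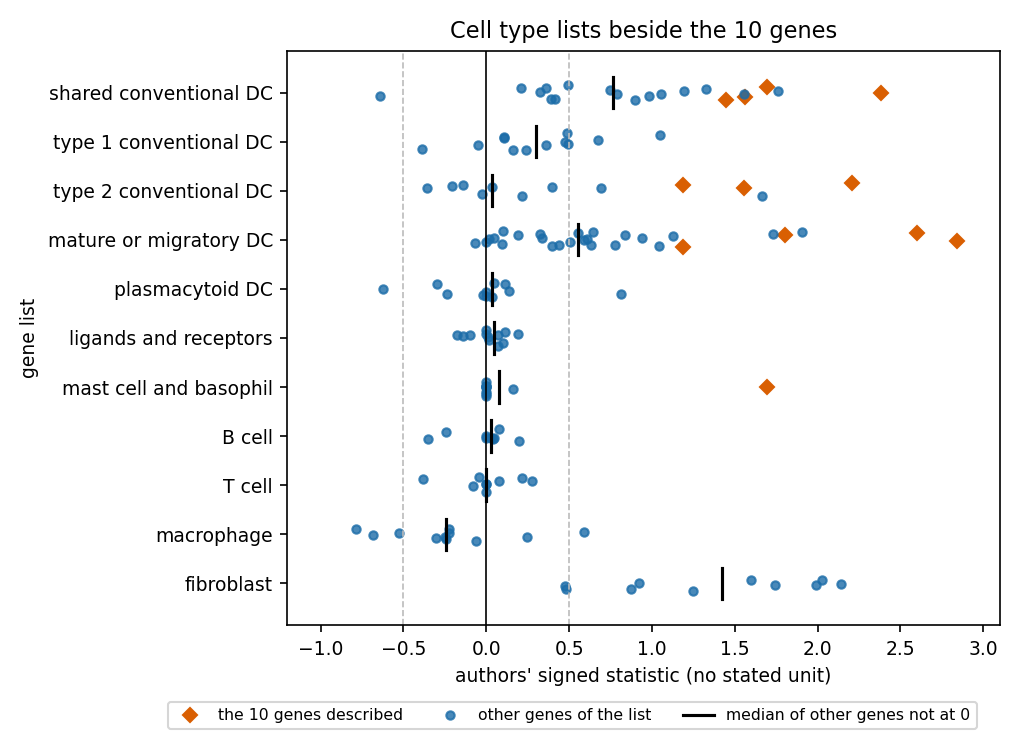
Authors' signed statistic (horizontal axis, no stated unit) of every listed gene by cell type list; diamonds are the 10 genes described, circles the other genes of each list, black bars the median of other genes not at 0, and dashed lines a size of 0.5. The medians are 0.77 for shared conventional dendritic cell genes, 0.55 for mature or migratory genes, 1.42 for fibroblast genes and -0.25 for macrophage genes.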

How the data were processed

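Total RNA of the cells was purified with a column kit and made into Illumina libraries, per the labels' protocols. CASAVA 1.8.2, TopHat and the build mm10 are named in the submitters' processing notes; which program counted the reads, on which annotation and with what use of strand, is not given in the sources used here. A single table was deposited by the authors, with a signed score per gene, called a statistic in the file header, and its ranking. The rank recomputed from the size of the score matched the deposited one within 1e-06 for 23284 of 23284 genes. A further 2 columns, with values for each library, match no sample label and were not used, so the depth of each library and the planned scaling and pseudocount alternatives were not analysed here.

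The 10 genes and the 12 lists were chosen with earlier results of these data known. Lists held 154 genes, of which 152 were matched, 4 by an older symbol; 1 further gene is not reported here. Named genes were the 10, up to 4 genes of largest size per list, list genes at exactly 0 and the 2 nearest annotated genes on either side; Slamf7, Ccr4, Kitl, Csf2rb, Fscn2, Fscn3, Pdgfrb, Csf1r, Irf8, Batf3, Xcr1, Siglech, Ccr9, Sirpa, Itgam, Cd80, Cd86, Cd274 and Lamp3 were named after their values were seen. Sizes of 0.5 and 1 are descriptive thresholds with no error rate. With a single library of each population, no test was possible and none was run. The counting of lists and the motif search were tested on simulated data. Gene positions and promoters are from RefSeq on GRCm38.p6, the assembly of mm10. Computation was in Python 3.11.15 with pandas 2.3.3 and NumPy 2.4.6, and figures were drawn with Matplotlib 3.10.9.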

Additional observations from a re-analysis of the deposited data

How the results depend on the processing

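No paired analysis was possible because there is a single library of each kind, and neither can be left out. Values of single genes are the authors' own and have no alternative here; changes of scaling and pseudocount were not run, because the values of each library were not used. Raising the size from 0.5 to 1 left 165 positive and 15 negative genes of the whole table. On the positive side it left 5 shared conventional, 4 mature or migratory, 1 type 1, 1 type 2 and 0 plasmacytoid dendritic cell genes, 6 of 10 fibroblast genes, 0 macrophage genes and 1 of the 6 relatives of the 10 genes at 0.5 or more. With the 10 genes included, an alternative chosen after seeing the data, the type 2 list held 5 genes at 0.5 or more and the mast cell list 1, which is Kit. List medians stayed inside the 95% binomial interval of the median in all 12 lists with members at 0 included and in all 12 when the mean replaced the median. That interval is wide in short lists. Only the mature or migratory, plasmacytoid, ligand and receptor, mast cell and T cell lists held genes at 0, so elsewhere including them could change nothing. The mast cell list rests on 2 values other than 0. Its mean and median are therefore equal, and its interval is only their range, short of 95%. Inside it, the type 2 value went from 0.04 to 0.25 with the mean and to 0.31 with the 10 genes included, and that of the relatives of the 10 genes went from 0.16 to 0.35 with the mean. The mean was negative where the median was positive for the plasmacytoid list (-0.0035 against 0.04) and the B cell list (-0.023 against 0.03). On the sense strand alone, GAGGAA was found in 3 of the 9 genes and in 17.7% of all genes in the promoter table. Depth limits could not be stated without values per library.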
